A study of Mus musculus with 15 samples.

Results

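The ETS family members described here are Ets1, Ets2, Fli1, Elf1, Elf4, Spi1, Etv3, Etv6, Elk3 and Gabpa, genes for transcription factors of 1 structural family. They were taken as every probe set on the array that is annotated to exactly 1 of these 10 symbols. That gave 26 probe sets of the 45101 on the array, and 10 of the 18194 genes with a probe set of their own. A probe set is a group of short oligonucleotides that together report 1 transcript, and several probe sets may report parts or isoforms of 1 gene. Levels are log2 signals, so a difference of 1 is a 2-fold change, and the probe sets of different genes were not compared with each other in level.

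RNA was measured on 15 Affymetrix mouse arrays in 5 groups of 3, from spleen lymphocytes of B6x129 mice. The groups were B cells treated for 4 h with 25 ug/ml lipopolysaccharide (LPS), B cells at 0 h, T cells at 0 h, and T cells treated with 7.5 ug/ml concanavalin A (ConA) for 4 h or for 14 h. LPS is a bacterial cell wall component that activates B cells through a Toll-like receptor, and ConA is a plant lectin that activates T cells by cross-linking surface glycoproteins. Cells cultured with neither agent were not among the groups, and a response to the agent and a response to culture cannot be told apart.

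ETS factors share a DNA-binding domain that recognises a GGAA core, and differ in the partners and signals that set whether they activate or repress. Many are switched on by phosphorylation through MAP kinases. In lymphocytes Ets1 and Fli1 are abundant in resting cells, Ets1 is known for holding B cells back from becoming antibody-secreting cells, and Spi1 (PU.1) is required for myeloid and B cells and is silenced as T cells develop. Gabpa works only together with a beta subunit and drives genes of mitochondria and of basic cell functions.

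The members lie on 8 chromosomes. Ets1 and Fli1 are neighbours on chromosome 9 with 0 protein-coding genes between them, and Ets2 lies on chromosome 16 beside another ETS gene, Erg, also with 0 between them. Gabpa is on chromosome 16, Elf1 on 14, Elf4 on X, Etv3 on 3, Etv6 on 6, Elk3 on 10 and Spi1 on 2. Promoter windows of RefSeq (GRCm38.p6), from 250 bases before to 50 bases after a start site, matched 7 of the 10 genes, all but Ets1, Fli1 and Spi1.

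Elf1, which fell after LPS and after 14 h of ConA, and Gabpa, which rose after LPS, had windows that are not shown. The promoters of 4 other members whose signals moved with activation are shown. By the probe set of highest mean signal Ets2 and Etv6 rose and Elk3 fell in each comparison with 0 h. Etv3 rose after LPS and fell after 14 h of ConA. The 4 promoters are given below. Each runs 5′ to 3′ on the gene's strand, and capitals mark GGAAG, an ETS core with 1 flanking base, or its reverse complement CTTCC.
Ets2, chr16:95702157-95702456, + strand: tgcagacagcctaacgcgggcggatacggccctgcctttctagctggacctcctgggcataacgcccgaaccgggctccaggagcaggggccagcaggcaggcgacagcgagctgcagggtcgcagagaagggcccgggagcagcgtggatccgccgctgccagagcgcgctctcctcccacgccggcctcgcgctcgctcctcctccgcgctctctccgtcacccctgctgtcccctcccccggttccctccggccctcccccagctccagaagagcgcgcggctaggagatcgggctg
Etv6, chr6:134035450-134035749, + strand: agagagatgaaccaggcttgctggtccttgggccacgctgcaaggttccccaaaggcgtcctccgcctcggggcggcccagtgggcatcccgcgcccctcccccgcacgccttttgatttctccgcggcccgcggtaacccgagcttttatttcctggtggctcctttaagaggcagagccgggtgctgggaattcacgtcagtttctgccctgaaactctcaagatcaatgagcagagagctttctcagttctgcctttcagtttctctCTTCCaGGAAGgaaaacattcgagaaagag
Elk3, chr10:93311110-93311409, - strand: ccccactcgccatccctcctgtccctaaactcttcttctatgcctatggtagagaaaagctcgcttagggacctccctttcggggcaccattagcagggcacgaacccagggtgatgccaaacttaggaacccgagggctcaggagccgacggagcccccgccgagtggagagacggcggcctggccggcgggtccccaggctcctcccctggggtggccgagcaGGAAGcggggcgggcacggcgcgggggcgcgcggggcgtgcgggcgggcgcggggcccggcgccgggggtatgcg
Etv3, chr3:87525328-87525627, + strand: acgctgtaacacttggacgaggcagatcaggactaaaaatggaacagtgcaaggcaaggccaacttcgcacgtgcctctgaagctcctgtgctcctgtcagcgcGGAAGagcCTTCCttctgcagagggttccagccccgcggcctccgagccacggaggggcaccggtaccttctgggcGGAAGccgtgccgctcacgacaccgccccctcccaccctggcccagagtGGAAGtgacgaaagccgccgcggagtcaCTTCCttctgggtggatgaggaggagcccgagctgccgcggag
GGAAG was found on either strand in 71.4% of all 32851 promoter windows. The Ets2 window held 0 matches, that of Elk3 held 1, that of Etv6 held 2 and that of Etv3 held 5. The Etv3 window also held 1 CACGTG, the E-box bound by Myc and its relatives, which 7.2% of windows held. A match is a run of letters and was not tested as a binding site.

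Of the 26 probe sets, 20 from 9 genes reached a group mean of at least 5 in some group and were tested. The other 6 stayed below it: both of Elf4, 2 of Ets2, 1 of Etv3 and 1 of Elk3. Elf4, a factor known for keeping T cells quiescent, lay at or near the lowest value of the table, 2.24, on all 15 arrays. Its highest single value was 3.84, on B 0 h replicate 2, so these probe sets gave no level to compare. The low Ets2 probe set 1447685_x_at read 3.99 ± 0.01 after LPS and 2.26 ± 0.04 in B cells at 0 h, and 2.95 ± 0.17, 4.24 ± 0.28 and 4.38 ± 0.27 in T cells at 0 h, 4 h and 14 h (SD, n = 3). Etv3 1418636_at read 4.32 ± 0.11 after LPS and 3.87 ± 0.50 in B cells at 0 h, and at most 2.48 on any T array. Elk3 1445886_at was highest in T cells at 0 h, at 3.64 ± 0.50, and Ets2 1437809_x_at read 2.24 on every array.

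Arrays of a group correlated at 0.995 to 0.999. The mean signal of 9 B cell markers was 12.75 to 12.80 on the B 0 h arrays and 4.61 to 4.86 on the T 0 h arrays. That of 10 T cell markers was 3.32 to 3.49 on B 0 h arrays and 11.84 to 11.87 on T 0 h arrays, so the cells carried the markers of their labels. Xist, the RNA of the inactive X chromosome, read 2.24 to 2.42 on the LPS arrays and 11.98 to 12.00 on the B 0 h arrays. In T cells Xist read 12.15 to 12.31 at 0 h, 2.38 to 4.33 at 4 h and 11.70 to 11.86 at 14 h. The 4 h groups therefore stand apart from the others in Xist, the labels give no sex, and the part of this difference in the 4 h results was not tested. The comparison of ConA 14 h with T 0 h has no such gap. On T ConA 4 h replicate 1 and T 0 h replicate 2 the dap spike-in RNA had a 3′ signal 5.94 and 4.59 above its 5′ signal (log2), against 0.90 to 2.67 on the other 13 arrays.

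**Figure D1:**
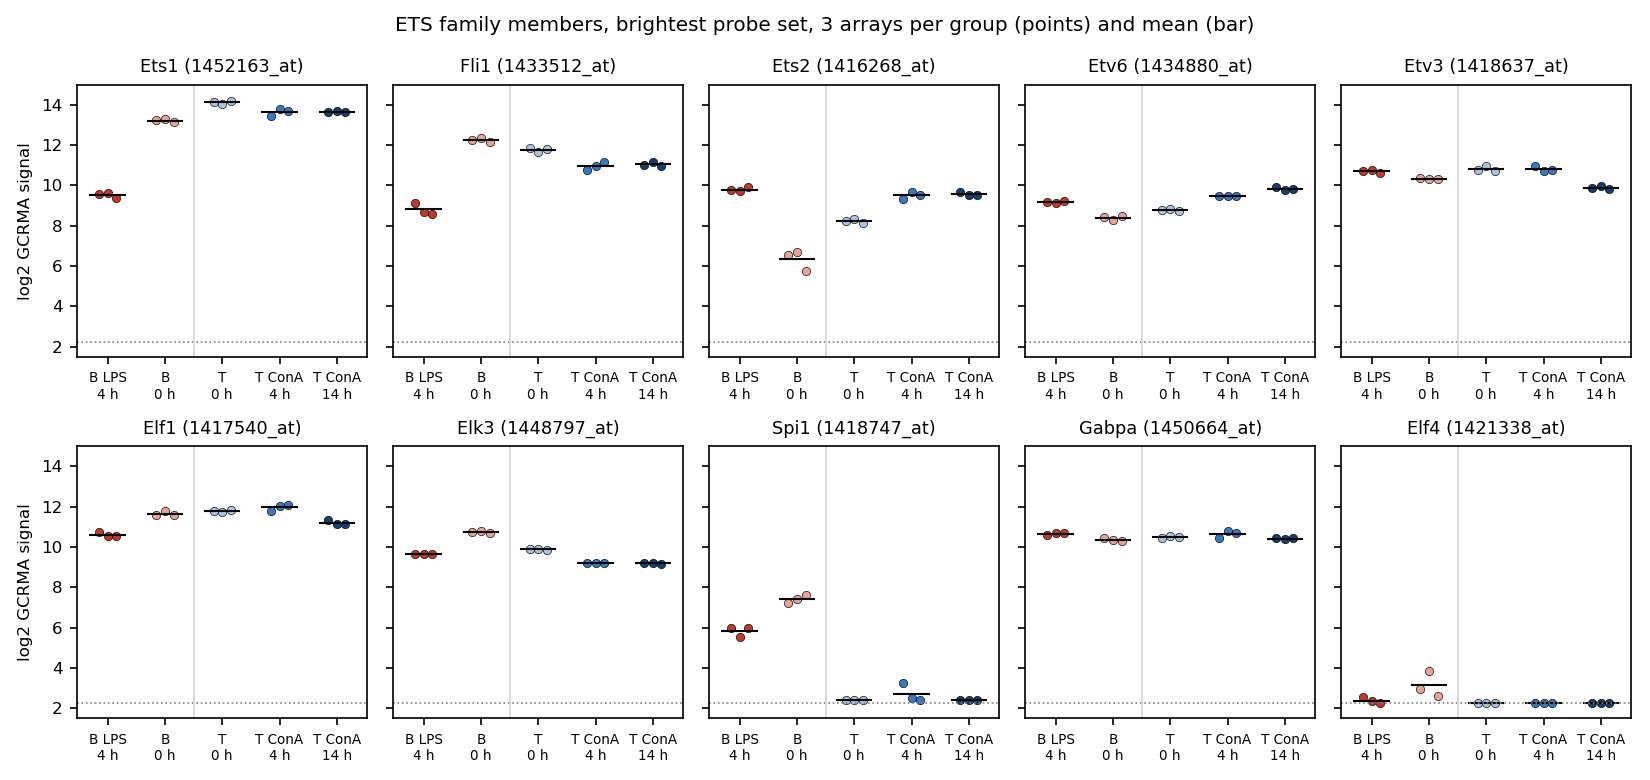
Log2 GCRMA signal of each member's brightest probe set on every array (points, 3 per group) with the group mean (bar). Columns are B cells after LPS, B cells at 0 h, and T cells at 0 h, 4 h and 14 h of ConA, and the dotted line is the lowest value of the table, 2.24. Ets1 and Fli1 are lowest after LPS, Ets2 is highest there, and Elf4 lies near the dotted line in every group.

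Between B cells at 0 h and B cells after 4 h of LPS the members differed in both directions. Each of the 9 tested genes was called changed by its brightest probe set, 4 higher and 5 lower, where 79.2% of all 9045 genes tested were called, 37.3% higher and 42% lower. At a change of at least 2-fold 6 of the 9 were called, against 42.8% of all genes. The median change of the members was -1.03 and that of all genes -0.05. Among probe sets, 20 of 20 were called, against 76.4% of all 16238 probe sets tested. All p-values for single probe sets are two-sided and come from limma with Benjamini-Hochberg adjustment over those 16238.

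Ets1 and Fli1 fell most among the members. Ets1 (1452163_at) read 9.57, 9.64 and 9.36 on the LPS arrays, against 13.22, 13.30 and 13.13 at 0 h. The arrays did not overlap, and the fall was -3.69 ± 0.09 (log2, SE), 12.9-fold, with an adjusted p of 7.72e-13. The other 3 Ets1 probe sets fell by 3.87, 5.19 and 6.06 on the log2 scale. For 1422028_a_at, the last of these, the LPS mean of 2.94 lies near the lowest value of the table, so its fall is a lower bound. Fli1 (1433512_at), whose product is a close relative of Erg, read 9.13, 8.69 and 8.60 after LPS, against 12.23, 12.36 and 12.13 at 0 h. This fall of -3.44 ± 0.13 was 10.8-fold (adjusted p = 4.09e-11), and 1422024_at fell by 4.02. The 2 neighbouring genes thus had lower signals on all LPS arrays than on any 0 h array, by every probe set.

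Ets2, an activator that MAP kinases phosphorylate, moved the other way. It read 9.75, 9.70 and 9.92 after LPS, against 6.57, 6.70 and 5.73 at 0 h, a rise of 3.45 ± 0.20 (adjusted p = 1.93e-09). B 0 h replicate 3 was the lowest of the 15 arrays for Ets2, and the rise lay between 3.15 and 3.64 when any 1 array was left out.

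Elf1 and Spi1 fell by less than Ets1 and Fli1. Elf1, a lymphoid activator, read 10.75, 10.56 and 10.52 after LPS, against 11.60, 11.77 and 11.56 at 0 h, a change of -1.03 ± 0.10 (adjusted p = 5.32e-07). Its second probe set 1439319_at fell by 0.87. Spi1 read 6.0, 5.54 and 5.99 after LPS, against 7.22, 7.40 and 7.60 at 0 h, a change of -1.56 ± 0.19 (adjusted p = 5.82e-06).

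Markers of monocytes, macrophages and neutrophils moved together with Spi1. Of 14 such genes 11 were tested and 10 fell after LPS, with a median change of -4.40. Their mean signal over the 14 genes was 4.32 to 4.50 on LPS arrays and 7.76 to 7.85 on B 0 h arrays. C1qa and C1qc, complement genes of macrophages, read 2.24 after LPS, the lowest value of the table, and Mpeg1 did not pass the test. Of 9 B cell markers 7 fell, with a median change of -1.20. Erythroid markers fell too, 6 of 6 tested, with a median change of -1.43 and mean signals of 7.60 to 7.79 on LPS arrays and 9.21 to 9.22 on B 0 h arrays. Of the 3 dendritic cell markers tested, Zbtb46 and Flt3 rose by 4.62 and 2.29 and Itgax fell by 3.74. Of the NK cell, platelet and endothelial markers 1 of 2, 1 of 2 and 1 of 1 tested fell. The part of these cell types in the Spi1 result was not tested, and in bulk samples fewer cells of a type and less RNA per cell cannot be told apart. The closest relatives of Spi1 fell as well: Spib, which acts in B cells beside Spi1, had 11.35 after LPS and 12.52 at 0 h (-1.17 ± 0.11), and Spic, which red pulp macrophages need, had 5.00 and 8.62 (-3.63 ± 0.12).

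**Figure D2:**
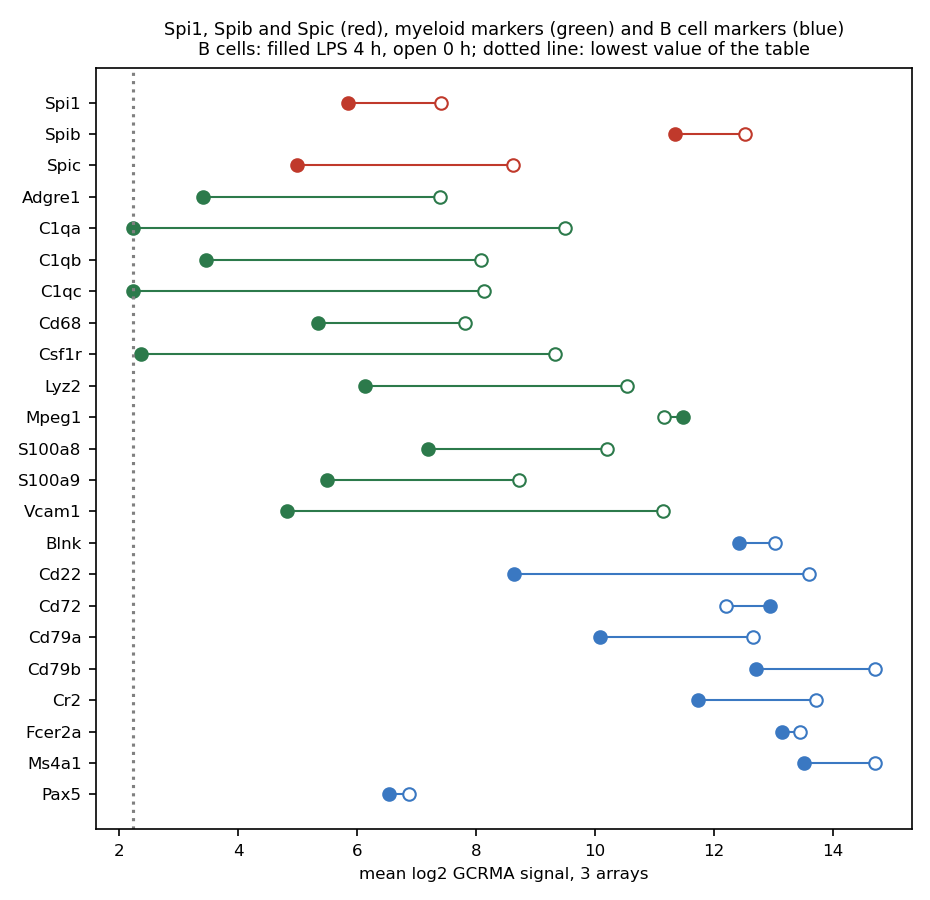
Mean log2 signal over 3 arrays in B cells after LPS (filled) and at 0 h (open) for Spi1, Spib and Spic (red), tested monocyte, macrophage and neutrophil markers (green) and tested B cell markers (blue). Spi1 lies at 5.84 after LPS and 7.41 at 0 h, while 10 of the 11 green markers are lower after LPS.

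The 3 repressors split. Etv6, a repressor that polymerises through its pointed domain, had 9.18, 9.13 and 9.25 after LPS, against 8.42, 8.26 and 8.48 at 0 h, a rise of 0.80 ± 0.07 (adjusted p = 2.41e-07). Its second probe set 1423401_at rose by 1.44. Etv3, a repressor linked to growth arrest of macrophages, rose by 0.37 ± 0.09 to 10.70 ± 0.07 after LPS, against 10.32 ± 0.03 at 0 h (SD, n = 3, adjusted p = 0.00143 by limma). The probe sets 1418635_at and 1456358_at of Etv3 rose by 0.81 and 0.76. Elk3, a ternary complex factor that binds DNA with serum response factor and represses until MAP kinases act on it, had 9.64, 9.66 and 9.64 after LPS, against 10.75, 10.78 and 10.70 at 0 h. That fall of -1.10 ± 0.05 (adjusted p = 3.69e-10) stood beside changes of -1.31 and -1.11 for its other 2 tested probe sets, which were called as well.

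Gabpa rose slightly, to 10.60, 10.68 and 10.70 after LPS, against 10.43, 10.35 and 10.28 at 0 h (0.31 ± 0.08, adjusted p = 0.0043). Its probe set 1450665_at rose by 0.97 ± 0.12. Each of the 7 members with more than 1 tested probe set had all of them called in the same direction in this comparison.

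ConA changed members in both directions in T cells at 4 h. By brightest probe set 5 of the 9 genes were called, 2 higher and 3 lower, where 65% of all genes were called, 32.9% higher and 32% lower. Their median change was 0.15, and that of all genes 0.00. Among probe sets 11 of 20 were called, against 61.5% of all. Ets2 rose most by brightest probe set, with 9.31, 9.67 and 9.54 at 4 h, against 8.25, 8.31 and 8.12 at 0 h, a change of 1.28 ± 0.20 (adjusted p = 8.06e-05). Etv6 rose by 0.67 ± 0.07 (adjusted p = 2.98e-06), and by 1.67 with 1423401_at.

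The members that fell at 4 h were Fli1, Elk3 and Ets1. Fli1 had 10.77, 10.97 and 11.14 at 4 h, against 11.84, 11.67 and 11.80 at 0 h, a change of -0.81 ± 0.13 (adjusted p = 0.000157). Elk3 fell by 0.70 and Ets1 by 0.47. The Elk3 probe set 1435143_at fell by 0.91, while 1417662_at at -0.48 ± 0.24 did not pass (adjusted p = 0.0968). The Ets1 probe sets did not move as one: 1426725_s_at fell by 0.40, while 1422027_a_at at 0.22 ± 0.37 and 1422028_a_at at -0.09 ± 0.19 did not pass (adjusted p = 0.638 and 0.712). Nor did the mean of the Ets1 probe sets, at -0.18 (adjusted p = 0.284). The Ets1 probe set 1422027_a_at was called higher, at 0.74 (adjusted p = 0.0316), once T ConA 4 h replicate 1 was left out. Elf1 at 0.18 ± 0.10, Etv3 at 0.00 ± 0.09, Gabpa at 0.15 ± 0.08 and Spi1 at 0.31 ± 0.19 did not pass by their brightest probe sets. The same omission had Elf1 and Gabpa called higher, at 0.28 (adjusted p = 0.0245) and 0.25 (adjusted p = 0.00737). Among the fainter probe sets Gabpa 1450665_at rose by 0.98 ± 0.12 and Etv3 1418635_at fell by 0.20 (adjusted p = 0.043). This Etv3 call was lost in 8 of the 15 fits that left out 1 array, with changes of -0.22 to -0.14 and adjusted p of 0.0511 to 0.168. Spi1 stayed between 2.41 and 3.27 on all T arrays, with its highest value on T ConA 4 h replicate 1.

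Markers of other cell types moved in the T cell comparisons as well. Erythroid markers fell, 6 of 6 tested, at 4 h (median -2.68) and at 14 h (median -2.89), with mean signals of 7.14 to 7.22 at 0 h, 4.35 to 4.43 at 4 h and 4.28 to 4.37 at 14 h. Both NK cell markers tested fell at 4 h and at 14 h. Of 9 B cell markers 4 rose and 2 fell at 4 h, and 1 rose and 3 fell at 14 h. Of 11 monocyte, macrophage and neutrophil markers tested 2 rose and 1 fell at 4 h, and 0 rose and 5 fell at 14 h. S100a8 among them read 7.48 at 0 h, 10.19 at 4 h and 4.67 at 14 h. Of 2 platelet markers tested 1 fell at 4 h and 1 rose at 14 h, and the 1 endothelial marker tested fell at 4 h. Of 10 T cell markers 7 fell at each time, with medians of -0.80 and -0.64. Their part in the members' changes was not tested.

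After 14 h of ConA Etv6 and Ets2 were higher and Etv3, Elf1, Elk3, Fli1 and Ets1 lower by their brightest probe sets. Thus 7 of the 9 genes were called against T 0 h, 2 higher and 5 lower, where 67.4% of all genes were called, 36% higher and 31.3% lower. Their median change was -0.46, against 0.03 for all genes. Among probe sets 14 of 20 were called, against 64.7% of all. Both T cell comparisons use the same T 0 h arrays. Etv6 had 8.78, 8.85 and 8.74 at 0 h, 9.46, 9.46 and 9.46 at 4 h and 9.91, 9.76 and 9.81 at 14 h. It rose by 1.04 ± 0.07 at 14 h (adjusted p = 4.85e-08), and 1423401_at rose by 2.63 ± 0.15, 6.17-fold. Ets2 read 9.66, 9.53 and 9.52 at 14 h, a rise of 1.34 ± 0.20 (adjusted p = 4.73e-05).

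Etv3 and Elf1 were called lower at 14 h. Etv3 had 10.77, 10.96 and 10.70 at 0 h, 10.97, 10.72 and 10.75 at 4 h and 9.87, 9.96 and 9.80 at 14 h. The 14 h change from 0 h was -0.93 ± 0.09 (adjusted p = 7.32e-07), and the other Etv3 probe sets fell by 0.76 and 1.18. Elf1 had 11.79, 11.72 and 11.80 at 0 h, 11.76, 12.00 and 12.09 at 4 h and 11.32, 11.12 and 11.14 at 14 h, a change of -0.58 ± 0.10 from 0 h (adjusted p = 0.000201). Its probe set 1439319_at fell by 1.23. Elk3 fell by 0.71, Fli1 by 0.72 and Ets1 by 0.46 at 14 h. The Elk3 probe set 1435143_at fell by 1.18, while 1417662_at at -0.22 ± 0.24 did not pass (adjusted p = 0.444). Of the other Ets1 probe sets 1426725_s_at fell by 0.46, while 1422027_a_at at 0.29 ± 0.37 and 1422028_a_at at -0.26 ± 0.19 did not pass (adjusted p = 0.517 and 0.257). The mean of the Ets1 probe sets was not called either, at -0.22 (adjusted p = 0.2). Gabpa (1450664_at) did not pass at -0.09 ± 0.08, while 1450665_at rose by 0.93 ± 0.12, so the 2 Gabpa probe sets gave different answers. Fli1 1422024_at at -0.50 ± 0.23 did not pass (adjusted p = 0.0702), and was called lower without T 0 h replicate 2 (-0.65, adjusted p = 0.0381), T ConA 4 h replicate 1 (-0.50, adjusted p = 0.0298) or B LPS replicate 3 (-0.50, adjusted p = 0.0483).

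Between 4 h and 14 h of ConA 4 of the 9 genes were called, 1 higher and 3 lower, where 47.3% of all genes were called, 26.5% higher and 20.8% lower. The median change was -0.01 for the members and 0.02 for all genes. Among probe sets 9 of 20 were called, against 44.7% of all. Etv3 fell by 0.94 ± 0.09 (adjusted p = 2.67e-06) and Elf1 by 0.76 ± 0.10 (adjusted p = 5.42e-05), while Etv6 rose further by 0.36 ± 0.07 (adjusted p = 0.00121). Gabpa fell by 0.24 ± 0.08 (adjusted p = 0.0302), a call that was lost when any 1 of 5 of the 6 T ConA arrays was left out, with changes of -0.25 to -0.17 and adjusted p of 0.0586 to 0.127. Ets1 at 0.01 ± 0.09, Ets2 at 0.06 ± 0.20, Fli1 at 0.08 ± 0.13, Elk3 at -0.01 ± 0.05 and Spi1 at -0.31 ± 0.19 did not pass. The fainter Fli1 probe set 1422024_at rose by 0.79 ± 0.23 (adjusted p = 0.0133), a call that was lost without T ConA 4 h replicate 1 (0.53, adjusted p = 0.0554) or T ConA 14 h replicate 2 (0.70, adjusted p = 0.0504).

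**Figure D3:**
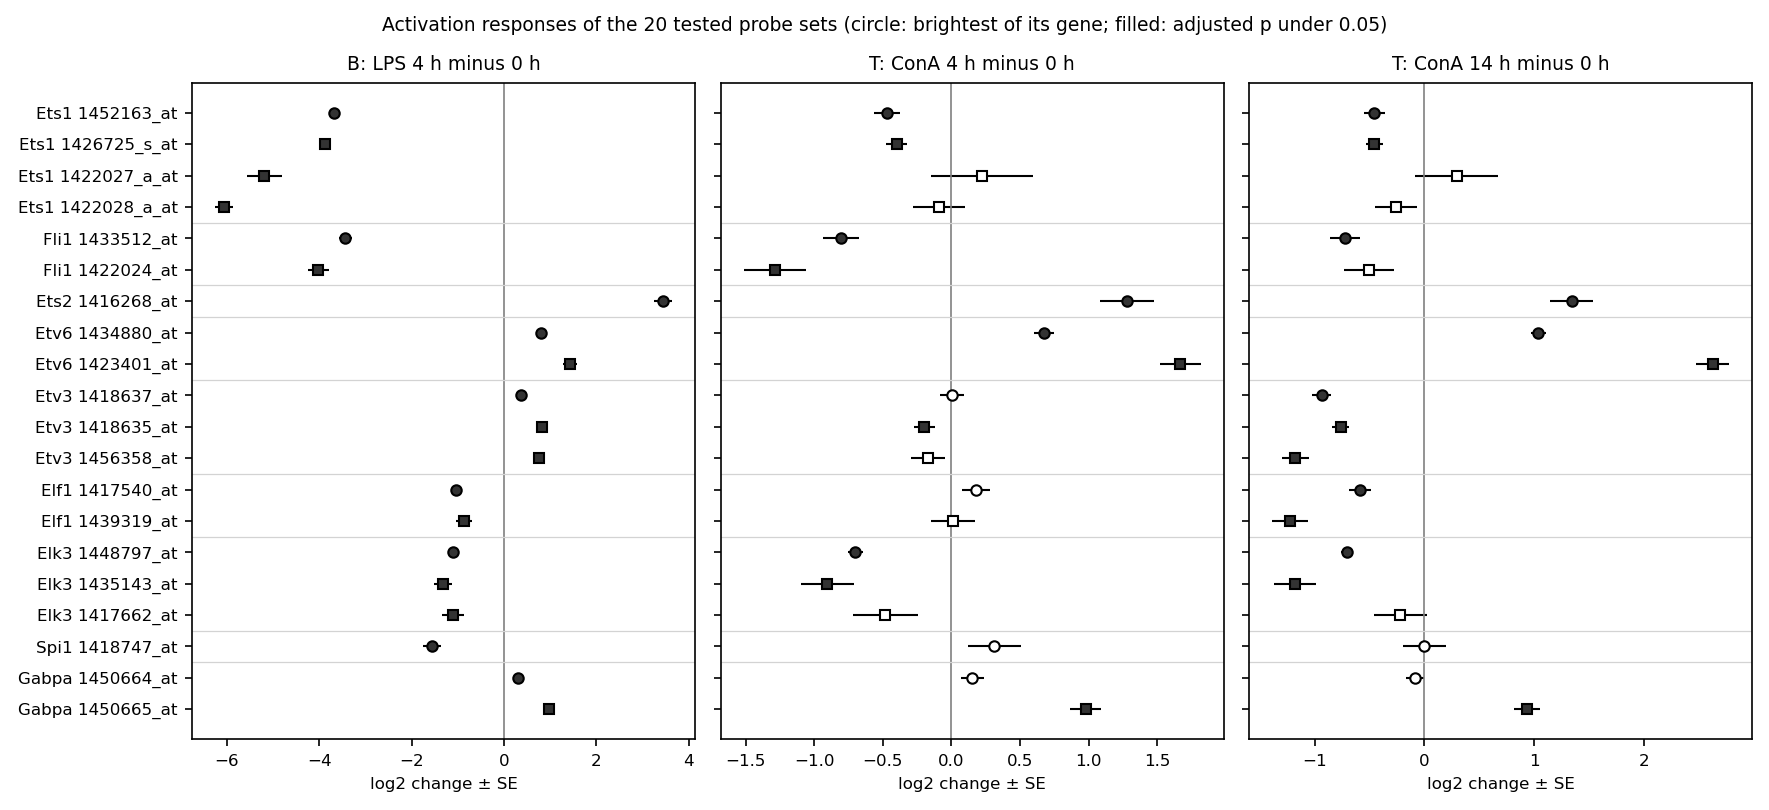
Log2 change with its standard error for the 20 tested probe sets after LPS in B cells and after 4 h and 14 h of ConA in T cells, with filled symbols for an adjusted p under 0.05 and circles for the brightest probe set of a gene. The 3 panels have different scales, so equal distances do not mean equal changes. Every symbol is filled in the B cell panel, with Ets1 at -3.69 to -6.06 and Ets2 at 3.45.

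The 4 h responses of the cell types were compared directly, as the LPS change in B cells minus the ConA change in T cells. By brightest probe set 7 of the 9 genes were called, 2 higher and 5 lower, where 65% of all genes were called, 30.8% higher and 34.2% lower. Among probe sets 14 of 20 were called, against 62% of all. The difference was -3.22 ± 0.13 for Ets1 (adjusted p = 2.79e-10) and -2.63 ± 0.19 for Fli1 (adjusted p = 6.3e-08), whose signals fell further in B cells. It was 2.17 ± 0.28 for Ets2 (adjusted p = 1.58e-05), which rose further in B cells. For Etv6 at 0.12 ± 0.10 and Gabpa at 0.15 ± 0.12 the test of the difference did not pass. Etv6 1423401_at, at -0.23 ± 0.21, passed only without B LPS replicate 1 (-0.42, adjusted p = 0.048). Agent and cell type changed together in this comparison and cannot be told apart.

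Resting B and T cells differed in 7 of the 9 genes by brightest probe set, with 3 higher and 4 lower in B cells, where 76% of all genes were called, 25.3% higher and 50.7% lower. The median change was -0.14 for the members and -0.27 for all genes. Among probe sets 17 of 20 were called, against 75.5% of all. Spi1 differed most: it read 7.22, 7.40 and 7.60 in B cells at 0 h and 2.41 on each T 0 h array. The difference of 5.00 ± 0.19 (adjusted p = 4.11e-11) is a lower bound, since the T arrays lie near the lowest value of the table. The monocyte, macrophage and neutrophil markers were also higher in B cells, 11 of 11 tested, with mean signals of 7.76 to 7.85 on B 0 h arrays and 3.73 to 3.95 on T 0 h arrays. Dendritic cell markers were higher in B cells for 2 of 3 tested, and 4 of 6 erythroid markers were higher and 2 lower. Of the platelet and endothelial markers 1 of 2 and 1 of 1 tested were higher, and 2 of 2 NK cell markers were lower. The part of these cell types in the Spi1 difference was not tested.

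Ets2 was lower in B cells at 0 h, at 6.57, 6.70 and 5.73, than in T cells, at 8.25, 8.31 and 8.12 (-1.89 ± 0.20, adjusted p = 1.25e-06). Fli1 was higher in B cells by 0.47 ± 0.13 (adjusted p = 0.00575). Elk3 was higher by 0.86 ± 0.05 with 1448797_at (adjusted p = 6.23e-09) and by 1.18 ± 0.24 with 1417662_at, and was not called with 1435143_at at -0.24 ± 0.19 (adjusted p = 0.278). The mean of the Elk3 probe sets was not called, at 0.14 (adjusted p = 0.248). It took in 1445886_at, which lay below the filter, with means of 2.41 over the B 0 h arrays and 3.64 over the T 0 h arrays. For Ets1, Etv3 and Etv6 the probe sets of 1 gene were called in opposite directions. Ets1 1452163_at was lower in B cells by -0.90 ± 0.09 and 1426725_s_at by -0.37 ± 0.08, while 1422027_a_at was higher by 2.21 ± 0.37 and 1422028_a_at by 0.93 ± 0.19. The last 2 carry a suffix that marks probe sets able to match several transcripts of a gene. Etv3 had -0.49 and -1.13 with 1418637_at and 1418635_at, and 0.71 with 1456358_at. Etv6 had -0.40 with 1434880_at and 0.49 with 1423401_at. The direction between cell types thus depended on the probe set for these 3 genes. With array medians set equal the calls of Ets1 1426725_s_at and Etv6 1434880_at were lost, at -0.17 (adjusted p = 0.0886) and -0.20 (adjusted p = 0.138). The call of Ets1 1426725_s_at was also lost with cyclic loess normalization, at -0.16 (adjusted p = 0.0715). Gabpa was not called by 1450664_at at -0.14 ± 0.08, and was higher by 1.22 ± 0.12 with 1450665_at. Elf1 was not called by 1417540_at at -0.13 ± 0.10, and was called higher by 1439319_at at 0.41 ± 0.16 (adjusted p = 0.0348). This Elf1 call was lost without B 0 h replicate 2 or 3 or T 0 h replicate 2 or 3, with differences of 0.35 to 0.41 and adjusted p of 0.0723 to 0.108.

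**Figure D4:**
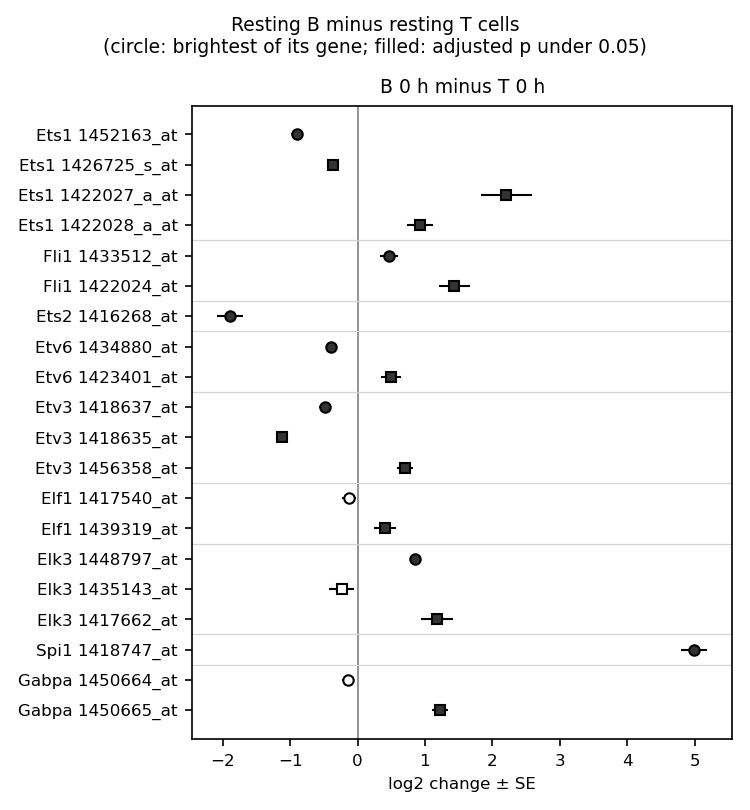
Log2 difference between B cells and T cells at 0 h, with its standard error, for the 20 tested probe sets. Filled symbols have an adjusted p under 0.05 and circles are the brightest probe set of a gene. Spi1 lies at 5.00 and Ets2 at -1.89, and probe sets of Ets1, Etv3 and Etv6 lie on both sides of 0.

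The order of the 5 groups differed between members. Ets1 by its brightest probe set ran from T 0 h at 14.11 ± 0.08 through ConA 14 h at 13.65 ± 0.02, ConA 4 h at 13.64 ± 0.16 and B 0 h at 13.21 ± 0.09 to B LPS at 9.53 ± 0.15 (SD, n = 3). Only the 2 ConA groups, among neighbours in that order, had overlapping arrays. Fli1 ran from B 0 h at 12.24 ± 0.11 through T 0 h at 11.77 ± 0.09, ConA 14 h at 11.04 ± 0.11 and ConA 4 h at 10.96 ± 0.19 to B LPS at 8.81 ± 0.28, again with an overlap between the ConA groups alone. Ets2 ran from B LPS at 9.79 ± 0.12 through ConA 14 h at 9.57 ± 0.08, ConA 4 h at 9.51 ± 0.18 and T 0 h at 8.23 ± 0.10 to B 0 h at 6.34 ± 0.53. Etv6 by its brightest probe set was highest with ConA 14 h at 9.83 ± 0.08, followed by ConA 4 h, B LPS and T 0 h. It was lowest in B 0 h at 8.39 ± 0.12, with no overlap between neighbours. By 1423401_at Etv6 ran from ConA 14 h through B LPS, ConA 4 h and B 0 h to T 0 h, and B LPS and ConA 4 h overlapped. Gabpa by its brightest probe set spanned least, 0.31 from its highest to its lowest group mean.

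The genes whose signal followed a member most closely over the 15 arrays were searched for the 4 members whose brightest probe set had group means that spanned at least 2. Ets1 was followed by Evl, Ctdsp2 and Paip2 (Pearson r of 0.997, 0.997 and 0.994), and Fli1 by Pdlim2, Mindy1 and Add3 (0.992, 0.990 and 0.990). Ets2 was followed by Mrps27, Taf1d and Srfbp1 (0.989, 0.988 and 0.985). Spi1 was followed by Ap1s3 and Fcmr (both 0.995) and by an immunoglobulin kappa segment (0.994). These correlations describe 5 group means more than 15 separate points, since the arrays of a group lie close together.

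Most other ETS genes lay below the filter. Of 16 other ETS genes 14 had a probe set of their own, 5 were tested, and the other 9 had no group mean above 4.53. After LPS 4 of the 5 fell and 1 rose. The gene that rose was Erf, a repressor controlled by MAP kinases. Erf had 4.95 after LPS and 3.32, near the lowest value, in B cells at 0 h, a rise of at least 1.64 ± 0.15. It had 5.33, 6.23 and 6.80 in T cells at 0 h, 4 h and 14 h, rises of 0.90 and 1.47 from 0 h. Spib read 12.52 in resting B cells and 3.41 in resting T cells, a difference of 9.11 ± 0.11 that is a lower bound, since the T level lies near the lowest value of the table. Elk4, a ternary complex factor like Elk3, fell by 0.96 ± 0.06 after LPS, and at 0.04 ± 0.06 did not pass with ConA at 4 h.

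Of 13 partner genes 11 were tested. After LPS 5 rose and 5 fell, and in T cells 3 rose and 6 fell at 4 h as at 14 h. Gabpb1, a beta subunit of Gabpa, had 8.78 after LPS and 7.66 in B cells at 0 h (1.12 ± 0.10), and 5.73, 7.62 and 7.71 in T cells at 0 h, 4 h and 14 h, rises of 1.89 and 1.97. Gabpb2, the other beta subunit, fell in each: by 1.43 after LPS, and by 0.67 and 1.09 with ConA at 4 h and 14 h. Runx1, which binds DNA side by side with Ets1, fell by 3.56 ± 0.20 after LPS, and by 0.98 and 2.20 with ConA. Runx3, also on the partner list, moved the other way after LPS, with 10.31 against 9.14 at 0 h (1.16 ± 0.10). In T cells Runx3 had 9.93 at 0 h, and was called lower at 4 h, with 8.78, and at 14 h, with 9.67. Cbfb, another listed partner, rose by 0.27 ± 0.08 after LPS and was not called with ConA at 4 h or 14 h. Irf4 and Irf8, which bind DNA together with Spi1 or Spib, rose by 2.62 and 0.29 after LPS. In T cells, where Spi1 stayed near the lowest value, Irf4 rose by 8.31 and 7.85 and Irf8 by 4.07 and 3.80 at 4 h and 14 h.

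Genes described as targets of ETS factors moved in both directions. Of 15 listed, 14 were tested. After LPS 5 rose and 5 fell, with a median change of 0.06, and with ConA 2 rose and 6 fell at 4 h, and 3 rose and 7 fell at 14 h. In B cells Csf1r, the macrophage growth factor receptor controlled by Spi1, fell by 6.97 ± 0.13 to 2.37, near the lowest value, and Btk, a kinase of B cell receptor signalling, fell by 3.35 ± 0.11. Csf1r is also 1 of the macrophage markers above. Fos, an immediate early gene reached by the ternary complex factors, had 7.83 after LPS and 3.84 at 0 h, a rise of 3.99 ± 0.11. Il7r, the interleukin 7 receptor that Gabpa controls, had 6.32 after LPS and 3.31 in B cells at 0 h, a rise of 3.02 ± 0.18, and fell in T cells by 1.52 at 4 h and 3.26 at 14 h. The 0 h levels of Fos and Il7r in B cells lie near the lowest value, so both rises are lower bounds. In T cells Cd72 fell by 2.40 at 4 h and 2.51 at 14 h, Srf fell by 0.97 and 1.57, and Egr1, an immediate early gene, rose by 1.91 and 0.57. Fos fell by 0.97 at 14 h. Between 4 h and 14 h Il7r fell by 1.74, Egr1 by 1.34, Fos by 0.65 and Srf by 0.60. Between resting cells Cd79a, a chain of the B cell receptor, was higher in B cells by 10.31 and Btk by 6.79, and Il7r and Fos were lower by -9.69 and -7.50. Each of these 4 differences is a lower bound, with 1 cell type near the lowest value. The difference of the 4 h responses was -6.69 for Csf1r, 4.54 for Il7r, 4.32 for Fos and -3.24 for Btk. In T cells at 0 h and 4 h Csf1r read 2.71 and 2.43 and Btk 3.17 and 3.06, near the lowest value. Their differences therefore rest on the falls in B cells. Those of Il7r and Fos are lower bounds, with B cells at 0 h near the lowest value. Cox4i1, a mitochondrial gene, did not pass after LPS at -0.02 ± 0.06. Of 2 more listed targets, Cox5b did not pass after LPS at 0.13 ± 0.09, and Tfam fell by 0.36 ± 0.11 (adjusted p = 0.0103).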

How the data were processed

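The deposited values are log2 signals of Affymetrix arrays. The authors computed these log2 values with GCRMA, which corrects for background and normalizes arrays to each other, per the submitters' processing notes. No GCRMA version is given in the sources used here. Per the labels' protocols 100 ng of RNA was labelled from each sample, so a change in RNA per cell is not visible. The lowest value, 2.24, is shared by 39.2% of values. Precision is limited by the number of arrays.

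Names came from the platform's gene table. The 34958 probe sets with 1 symbol were kept if their highest group mean was at least 5, which left 16238. All 15 arrays entered 1 limma fit of group means (limma 3.58.1, R 4.3.3), with 10 residual and 2.63 prior degrees of freedom. Calls used a Benjamini-Hochberg adjusted p under 0.05 within each comparison. Errors of changes are standard errors, and those of levels standard deviations. Genes were represented by their probe set of highest mean signal. The procedure was tested on simulated data.

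The members and the lists (other ETS genes, partners, targets, cell markers) were chosen with earlier results of these data known. Every member was named, and so were other ETS genes called at least 2-fold in some comparison and up to 4 targets per comparison with the largest called changes. Elk4, Cox4i1, Cox5b, Tfam and the partners given were picked with their values in view. The labels are silent on whether replicates came from separate animals or cultures, so p-values measure the spread between these arrays, which may be technical. The labels do not state that replicate numbers pair the arrays, and the main fit did not pair them. The deviations of arrays of 1 number from their group means correlated at -0.64 to 0.37. With so few arrays per group these correlations cannot settle whether the arrays were paired. Alternatives were other filters, normalizations, probe set rules, array weights, a replicate block and leaving out arrays.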

Additional observations from a re-analysis of the deposited data

Results flagged for a closer look

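The 4 h response to LPS in B cells and that to ConA in T cells differed, by limma's test of the difference itself, in 14 of 20 probe sets, from 7 of 9 members, where it differed in 62% of all probe sets and 65% of all genes. The differences are given here as B response minus T response on the log2 scale. For Ets1 the difference was -3.22 with 1452163_at, -3.47 with 1426725_s_at, -5.41 with 1422027_a_at and -5.97 with 1422028_a_at. For Fli1 it was -2.63 with 1433512_at and -2.73 with 1422024_at. Ets1 and Fli1 fell in both cell types by their brightest probe sets, further in B cells.

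For Ets2 the difference was 2.17, with rises of 3.45 in B cells and 1.28 in T cells. For Elf1 it was -1.21 with 1417540_at and -0.88 with 1439319_at, where both probe sets fell in B cells and neither passed in T cells. For Spi1 it was -1.87, against T arrays near the lowest value of the table. For Etv3 it was 0.37 with 1418637_at, 1.01 with 1418635_at and 0.94 with 1456358_at, all of which rose in B cells. For Elk3 1448797_at it was -0.40, with falls of 1.10 in B cells and 0.70 in T cells. This last call was lost with array medians set equal, at -0.17 (adjusted p = 0.269 by limma), and with the mean of all Elk3 probe sets, at -0.01 (adjusted p = 0.958). That mean took in 1445886_at, which lay below the filter and read 3.64 in T cells at 0 h and 2.24 with ConA at 4 h. The other 2 tested Elk3 probe sets were not called (adjusted p = 0.213 and 0.121).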

How the results depend on the processing

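Across the alternatives 3091 values of single members were counted as unchanged, 38 fell short of the threshold, 28 newly passed it and 5 reversed. A change of sign was counted as a reversal only if the value was called in the main fit or the alternative. Uncalled values that changed sign are thus among the 3091, as Elf1 1417540_at in B minus T at 0 h, which ranged from -0.19 to 0.14. All 5 reversals came from averaging a gene's probe sets. Gabpa at ConA 14 h became 0.42. In B minus T at 0 h Ets1 became 0.47, Etv3 0.15, Etv6 0.048 and Gabpa 0.54. The Etv3 average took in 1418636_at, which lay below the filter. Its mean was 3.87 over the B 0 h arrays and 2.36, near the lowest value, over the T 0 h arrays. The tested Etv3 probe sets gave -0.49, -1.13 and 0.71, so the Etv3 reversal rests on 1418636_at. Averaging probe sets also gave 2 members higher between ConA 4 h and 14 h and 1 member lower in B cells at 0 h. Setting array medians equal gave 2 members higher between ConA 4 h and 14 h as well. Members called higher with ConA at 4 h numbered 4 with array weights, and 4 with the dap spike-in difference as a covariate. They numbered 2 to 4 when each array was left out, the 4 coming without T ConA 4 h replicate 1. Array weights and that omission added Elf1 and Gabpa. The covariate added Elf1 at 0.18 (adjusted p = 0.0327 by limma) and Spi1 at 0.31 (adjusted p = 0.035), and Spi1 lay near the lowest value in T cells. Without a filter on low values 38.1% of probe sets were called after LPS, 28.8% with ConA at 4 h, 30.6% at 14 h, 19.1% between 4 h and 14 h, 38.1% in B against T cells, and 29.5% in the comparison of responses, with 34958 probe sets tested in place of 16238.

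Setting array medians equal shifted the median of all probe sets by 0.22 after LPS, 0.20 at ConA 14 h, 0.22 between ConA times, 0.20 in B against T cells and 0.23 in the comparison of responses, and cyclic loess shifted B against T cells by 0.13. The share of calls that were higher was then 59.1% against 50.3% as deposited after LPS, 66.4% against 53% at ConA 14 h, 76.7% against 52% between ConA times, 49.8% against 39% in B against T cells, and 63% against 50.5% in the comparison of responses. With the replicate block 2 member calls were lost, Etv3 1418635_at with ConA at 4 h (-0.20, adjusted p = 0.0639) and Elf1 1439319_at in B against T cells (0.41, adjusted p = 0.0545), and no other member call changed. Probe sets near the lowest value, as for Elf4 in every group and Spi1 in T cells, set only bounds.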
